A study of Mus musculus with 3 samples.

Results

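Lymphocytes and plasma cells were found among barcodes of 3 single-cell RNA libraries made from the intrinsic cardiac ganglia of the mouse atria. A barcode was counted when it held at least 1000 unique molecular identifiers (UMIs, 1 per captured RNA molecule) and at least 500 genes. At most 20% of its UMIs could be mitochondrial, and Snap25, Prph and Stmn2, which mark neurons, had to sum to under 20 UMIs per 10000. It then needed at least 2 of Cd79a, Cd79b, Ms4a1 and Ighm (B cells), at least 2 of Cd3e, Cd3d, Trbc2 and Nkg7 (T cells), or at least 5 Jchain UMIs (plasma cells). Members were thus chosen by the measured counts of these genes. This gave 114 members of 1558 barcodes within the depth and neuron limits and of 8361 barcodes in all. They were 52 B cells, 53 T cells and 9 plasma cells, and 0 barcodes met the rules of more than 1 class. The other 1444 barcodes within the same limits served as the comparison.

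The 3 groups had 1 library each, a mixed library of ganglia pooled across regions (labelled 2 months), an anterior (3 months) and a posterior library (4 months). All carried the label Baf53b-cre;lox-GFP and both sexes, so no group lacked the Cre or the reporter. In these mice Cre from Baf53b (Actl6b), a chromatin remodelling subunit of neurons, switches on GFP. Ganglia of 10 age- and sex-matched mice were dissected and dissociated, and fluorescent cells were sorted, so animals were pooled and the members are barcodes from a gate set for neurons. The labels name the cells neurons. Whether the libraries share animals is not given in the sources used here. Each region stands for 1 library and, by the labels, 1 age, which cannot be told apart. The mixed matrix was also made with Cell Ranger 3.1.0 and the other matrices with 6.1.2, so processing and library cannot be told apart either. The difference between libraries therefore has no replicate check and no test, and every interval is a 95% interval for counting error alone.

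B cells recognise antigen through a surface immunoglobulin made of a heavy chain and either a kappa or a lambda light chain, and carry the signalling partners CD79A and CD79B. T cells use a T cell receptor that signals through the CD3 chains and move between blood, lymph nodes and tissue under the control of chemokine receptors. Plasma cells are the antibody-secreting end stage of the B lineage, with an enlarged endoplasmic reticulum, and the J chain they make joins IgM and IgA into polymers. All of these cells are known to reside in or pass through the heart and its surrounding fat and pericardium.

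In mature B lineage cells a variable (V) segment forms part of each antibody chain. Unrelated cells can use the same V segment, so a segment read in a barcode does not by itself identify its antibody. The following 3 V segments are shown because each led its chain in 2 plasma cell barcodes. They are the V exons of GENCODE vM21 on GRCm38, written 5′ to 3′ on the coding strand. Capitals mark bases for which no 50-base stretch within the printed sequence that covers them is found in a transcript of another gene. Stretches reaching in from before the first printed base were not checked for this mark. Ighv11-2 (ENSMUSG00000096108) is a heavy chain V gene at chr12:114048241-114048540 on the minus strand (the last 300 of 307 bases of the exon), and 76 of its bases are in capitals. Igkv14-126 (ENSMUSG00000094345) is a kappa V gene at chr6:67896345-67896642 on the plus strand (the whole exon of 298 bases), all in capitals. Igkv1-135 (ENSMUSG00000096336) is a kappa V gene at chr6:67610209-67610508 on the plus strand (300 of 313 bases), with 61 in capitals.

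Ighv11-2: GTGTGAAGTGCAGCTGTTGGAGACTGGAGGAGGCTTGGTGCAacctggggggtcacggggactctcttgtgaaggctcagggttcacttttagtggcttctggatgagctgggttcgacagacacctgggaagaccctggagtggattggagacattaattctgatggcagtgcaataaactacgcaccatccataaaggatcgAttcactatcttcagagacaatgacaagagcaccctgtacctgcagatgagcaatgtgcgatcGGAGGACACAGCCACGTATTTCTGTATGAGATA
Igkv14-126: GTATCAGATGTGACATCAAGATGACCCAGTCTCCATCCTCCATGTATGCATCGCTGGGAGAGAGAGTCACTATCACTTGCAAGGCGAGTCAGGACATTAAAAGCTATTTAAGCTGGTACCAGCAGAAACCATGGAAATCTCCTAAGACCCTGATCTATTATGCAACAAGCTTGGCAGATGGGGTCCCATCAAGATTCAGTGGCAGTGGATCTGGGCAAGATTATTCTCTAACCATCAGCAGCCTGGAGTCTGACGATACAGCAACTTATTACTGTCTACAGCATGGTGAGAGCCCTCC
Igkv1-135: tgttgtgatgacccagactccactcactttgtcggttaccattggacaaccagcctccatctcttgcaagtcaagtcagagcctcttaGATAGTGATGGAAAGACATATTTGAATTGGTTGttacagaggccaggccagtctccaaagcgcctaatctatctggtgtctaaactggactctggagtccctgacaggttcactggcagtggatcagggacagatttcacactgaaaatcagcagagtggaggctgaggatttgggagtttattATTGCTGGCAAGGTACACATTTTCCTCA

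Lymphocytes and plasma cells made up 5.85% of the mixed barcodes within limits (23 of 393), 2.55% of the anterior (11 of 431) and 10.9% of the posterior (80 of 734). Mixed B cells numbered 13, or 3.31% (1.77 to 5.59), anterior B cells 1, or 0.232% (0.00587 to 1.29), and posterior B cells 38, or 5.18% (3.69 to 7.04). The B cell interval of the anterior library did not overlap those of the other 2 libraries. Mixed T cells numbered 8, or 2.04% (0.883 to 3.97), anterior T cells 10, or 2.32% (1.12 to 4.23), and posterior T cells 35, or 4.77% (3.34 to 6.57), and these intervals overlapped. Plasma cells were 2 in the mixed library, or 0.509% (0.0617 to 1.83), and 7 in the posterior, or 0.954% (0.384 to 1.96). The anterior library held 0 of 431, which allows a share of up to 0.696% by a limit of 3 barcodes of the total (used for every count of 0 below) and 0.852% by the Clopper-Pearson interval.

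The posterior B cell share was 22.3 times the anterior (3.77 to 904), an interval set by the single anterior B cell, and the T cell share was 2.06 times the anterior (0.996 to 4.65) and 2.34 times the mixed (1.07 to 5.85). The mixed library lay nearer the posterior than the anterior for B cells (14.3 times the anterior, 2.14 to 606) and nearer the anterior for T cells (0.877 times, 0.301 to 2.47). B cells were 61.9% of mixed (38.4 to 81.9), 9.09% of anterior (0.230 to 41.3) and 52.1% of posterior B and T cells together (40.0 to 63.9). That single anterior B cell was also the shallowest member, with 1306 UMIs. It held 2 UMIs each of Cd79b, Ms4a1 and Ighd, 1 of Ighm and 5 of Igkc, and 0 of Cd79a. Above a minimum of 2000 UMIs the anterior library held 0 B cells and the posterior 35.

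The rest of the non-neuronal barcodes also differed between libraries. Barcodes with macrophage markers numbered 22 (mixed), 14 (anterior) and 56 (posterior), those with epithelial markers 9, 0 and 71, and those with cardiomyocyte markers 1, 34 and 16. The part of dissection and sorting in the lymphocyte shares was not tested. Fewer lymphocytes in the tissue and fewer lymphocytes passing the gate cannot be told apart.

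**Figure D1:**
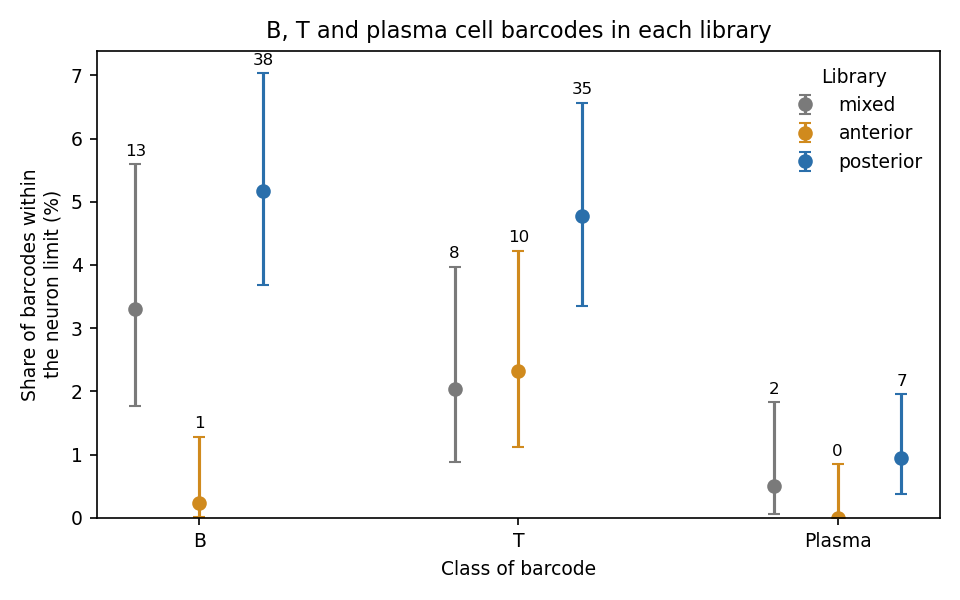
Share of the barcodes within the depth and neuron limits (y axis, percent) that were B, T or plasma cells in the mixed, anterior and posterior libraries, with 95% Clopper-Pearson intervals as bars. B cells stood at 3.31%, 0.232% and 5.18%, and T cells at 2.04%, 2.32% and 4.77%.

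The libraries held 119825307 (mixed), 55329380 (anterior) and 86391988 UMIs (posterior) in all. Median depth was 3026 UMIs for B cells (1306 to 26069), 3237 for T cells (1502 to 59576) and 13324 for plasma cells (2647 to 86534), against 4681 for the other barcodes. The deepest barcode held 12.9% of all B cell UMIs, 22.9% of T cell UMIs and 40.6% of plasma cell UMIs, so summed levels lean on it. Levels are given as counts per 1000000 UMIs (CPM) of a class, and a gene at 0 UMIs is below 14.9 CPM in B cells, 11.5 in T cells and 14.1 in plasma cells (3 UMIs of the total). Pairs of libraries shared 8 barcode sequences, of which 0 were members.

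The values near the rule's thresholds were as follows. Of the 52 B cells and the plasma cells, which also carry B genes, 40 barcodes had all 4 B genes, 12 had 3 and 9 had 2, and of 53 T cells 25 had all 4 T genes, 22 had 3 and 6 had 2. Exactly 1 B gene was seen in 113 barcodes within limits, and of the 104 of these outside all classes 99 held Ighm alone. Exactly 1 T gene was seen in 6. The lowest Jchain count among plasma cells was 15 and the highest in other barcodes within the limits was 1, in 9 barcodes. A further 19 barcodes met a class rule but lay above the neuron limit, 17 of them posterior. In 23 members, all posterior, the 3 neuron genes summed to between 10 and 20 UMIs per 10000, just inside the limit.

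The members' label was checked against markers of other cell types. Actl6b, which drives the Cre, had 0 UMIs in B and T cells and was seen in 2 of 9 plasma cells. The eGFP sequence, listed in the mixed library only, had 0 UMIs in its 23 members. Npy, a neuropeptide of sympathetic and cardiac neurons, stood at 139 CPM in B cells, 154 in T cells and 93.8 in plasma cells, against 179.8 in the other barcodes. All 4 neutrophil markers (S100a8, S100a9, Csf3r, Retnlg) and all 4 mast cell markers (Cpa3, Mcpt4, Tpsb2, Kit) were at 0 in all 3 classes. In T cells, 3 of 8 macrophage markers were seen, summing to 30.7 CPM, and C1qa, C1qb, C1qc, Csf1r and Adgre1 were at 0.

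In 4 members at least 3 genes and 10 UMIs of another cell type were found. A posterior B cell of 8164 UMIs held all 8 macrophage markers with 276 UMIs (Lyz2 99, C1qa 70), and a posterior B cell of 2963 UMIs held 7 of them with 84 UMIs. These 2 were also the only B cells with no light chain UMI, and each had 1 Ighm UMI. A mixed B cell of 9586 UMIs held 208 UMIs of 3 smooth muscle genes, 103 of them Acta2. A posterior T cell of 15521 UMIs held 38 UMIs of dendritic cell markers, 29 of them Siglech, a surface protein of plasmacytoid dendritic cells. It also held 4 UMIs of Dntt and 7 of lambda chains beside 36 of Cd3 genes. Without these 4 the B and T cell shares were 3.15% and 3.35%, against 3.34% and 3.40% with them.

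The B cells held the following B cell genes. Cd79a, the signalling chain of the B cell receptor, was seen in 49 of 52 B cells at 2171 CPM (1972 to 2384), and in 1 of 1444 other barcodes. Ms4a1, which encodes CD20, was seen in 42 at 942 CPM and in 0 of the others. Cd79b was seen in 44 at 748 CPM. Ighm, the IgM heavy chain, was seen in 48 at 1660.3 CPM. Since these genes chose the cells, their levels are a description. Cd79a stood at 2799 CPM in the mixed and 2016 in the posterior library, and Ms4a1 at 925 and 941. The Poisson intervals of these libraries were 2323 to 3345 and 1800.2 to 2251 for Cd79a, and 661 to 1260.2 and 796 to 1106 for Ms4a1. They leave out the spread between cells and between animals, so no difference between libraries is read from them.

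Genes with at least 20 UMIs in the class were compared with the other barcodes. A gene was called higher when its summed level was at least 4-fold that of the others (10 CPM added to both). It also had to be higher in each library with at least 5 barcodes of the class. The leading genes of each class were taken from those that also had a UMI in at least 25% of its barcodes. In B cells 139 of 1320 genes were called higher (10.5%). The rule used this same contrast, so nothing is read from the count. A gene entered only through its level in the class itself, so here and in the other classes the counts and medians of listed genes that entered are descriptions that favour higher genes. Of 22 genes of B cell identity, 18 reached the minimum and were called higher and 4 did not reach it, with a median log2 fold of 4.02 against 0.35 over all genes compared. The highest outside the immunoglobulins was Ly6d, a surface protein of the B lineage, with a log2 fold of 6.89 (1814 CPM against 5.42), seen in 48 of 52. Ltb, which encodes lymphotoxin beta, had a log2 fold of 5.33, Mzb1, a chaperone of antibody assembly, 5.32, the IgM receptor Fcmr 5.24, Ptprcap 5.13, and the scaffold Bank1 5.09. The B lineage transcription factors Ebf1 and Pax5 were seen in 46 and 24 of 52, at 768 and 183 CPM. Ebf1 also stood at 145 CPM in the other barcodes, while Pax5 was at 0.258 there.

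Of 10 genes of antigen presentation by MHC class II, 9 were called higher in B cells, with a median log2 fold of 2.48. The invariant chain Cd74 was seen in all 52, at 11805 CPM against 1849, with 13 to 198 UMIs per barcode (median 37.5). The other barcodes include the 92 with macrophage markers. Cd74 was seen in only 24 of 370 mixed, 20 of 420 anterior and 122 of 654 posterior other barcodes. The folds are therefore not a contrast with other antigen-presenting cells. H2-Aa, H2-Ab1 and H2-Eb1, the class II chains themselves, stood at 3638, 3697 and 3841 CPM. H2-DMb2, a peptide exchange chain, reached 352 CPM against 3.74, and the class II transactivator Ciita 119 against 12.9. The exception was H2-DMb1, with a log2 fold of 0.89.

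Most B cells held transcripts of naive cells. Ighd, the IgD heavy chain carried by naive B cells, was seen in 39 of 52 (10 of 13 mixed, 1 of 1 anterior, 28 of 38 posterior), at 540.2 CPM, and Ighm and Ighd occurred together in 36. Fcer2a, which encodes CD23 of follicular B cells, was seen in 25 and in 0 others, and Ighd or Fcer2a in 42 of 52, or 80.8% (67.5 to 90.4). The complement receptor Cr2 was seen in 11. The lymph node homing receptor Ccr7 was seen in 26 of 52 (6 of 13 mixed, 0 of 1 anterior, 20 of 38 posterior). Klf2, a transcription factor of quiescent lymphocytes, stood at 927 CPM against 626 in the others. By contrast, UMIs of a switched heavy chain (Ighg or Igha) were seen in 2 of 52, both posterior, or 3.85% (0.469 to 13.2).

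The germinal centre genes S1pr2 and Gcsam were at 0 in B cells, and Bcl6 had 1 UMI. The proliferation genes Mki67 (9 UMIs) and Top2a (20) came from 1 barcode. This was the deepest posterior B cell (26069 UMIs). It was also 1 of the 2 with a switched heavy chain, holding 3 UMIs of Ighg2b and 1 of Ighg2c beside 46 of Ighm, and it had 0 of Ighd. The other was a posterior cell of 4399 UMIs with 1 Ighg3 UMI beside 8 of Ighm. Some genes used to mark other mature subsets were sparse. Cd5, known from B-1a cells, was seen in 2 B cells and Bhlhe41 in 3, all of these last in the mixed library. S1pr3 and Zbtb32 were at 0. Cd9, also used for such subsets, was more frequent. Leaving out the members with genes of another cell type, Cd9 was seen in 13 of 49 B cells and 17 of 52 T cells. The precursor genes Rag1, Rag2, Dntt, Vpreb1 and Igll1 were all at 0.

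**Figure D2:**
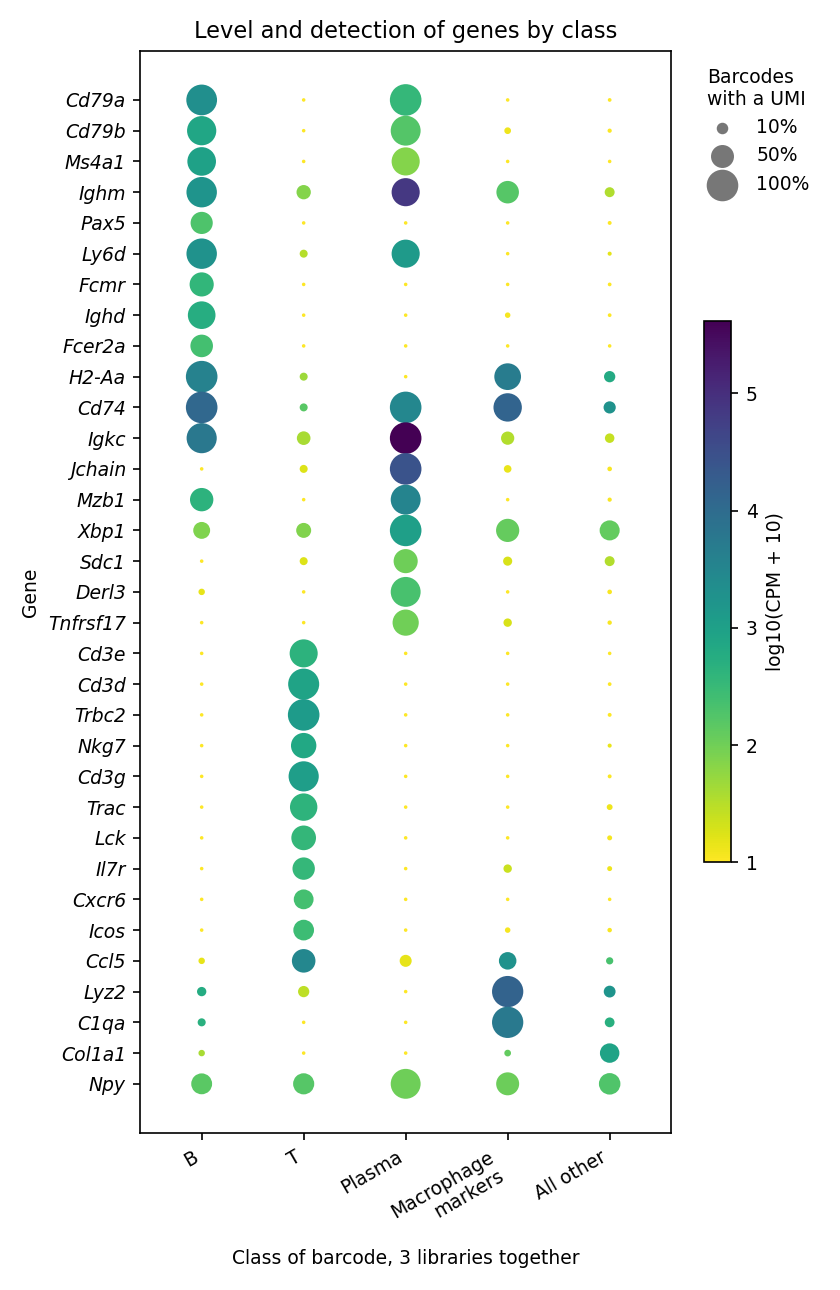
Selected genes (rows) in B, T and plasma cells, in barcodes with macrophage markers and in all other barcodes (columns), with the 3 libraries together. Dot colour gives log10(CPM + 10) over the summed UMIs of the class, and dot size the percent of its barcodes with a UMI. Cd79a stood at 2171 CPM in B cells, Cd3d at 852 in T cells and Mzb1 at 3455 in plasma cells.

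Light chains were measured per B cell as Igkc UMIs against the sum of Iglc1, Iglc2 and Iglc3. At least 3 light chain UMIs were found in 50 of 52 B cells, and kappa exceeded lambda in 44 of 50, or 88.0% (75.7 to 95.5). By library this was 10 of 13 mixed, 1 of 1 anterior and 33 of 36 posterior B cells. Igkc ran from 0 to 153 UMIs per B cell, with a median of 17. The larger chain held 55.0% to 100% of a cell's light chain UMIs, with a median of 85.2%, and held over 70% in 42 of 50. Summed over B cells, Igkc had 1197 UMIs, against 86, 229 and 104 of Iglc1, Iglc2 and Iglc3. A cell that mirrored these sums would also hold over 70% kappa. The mark of 70% therefore cannot show that a kappa cell held a single light chain.

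Lambda exceeded kappa in 6 B cells. In the mixed library these held 6 Igkc and 21 lambda UMIs, 8 and 36, and 0 and 12 (the cell with smooth muscle genes). In the posterior library they held 0 and 27, 8 and 16, and 0 and 56. The first and the fourth of these led with Iglc2, the second and the fifth with Iglc1, the third with Iglc3 and the sixth with Iglc2. Iglc2 and Iglc3 share 7.65% and 10.7% of their 50-base stretches with each other, so reads could be split between them, while Iglc1 shares 0. In the posterior library Igkc was also seen in 87 of 654 other barcodes (13.3%, 117 UMIs, median depth 5954) and in 8 of 35 T cells with 1 UMI each (median depth 3445), against 34 of 38 B cells (median depth 3072). In the mixed library it was seen in 1 of 370 others and 0 of 8 T cells. Single Igkc UMIs in posterior cells are therefore at the level of background.

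**Figure D3:**
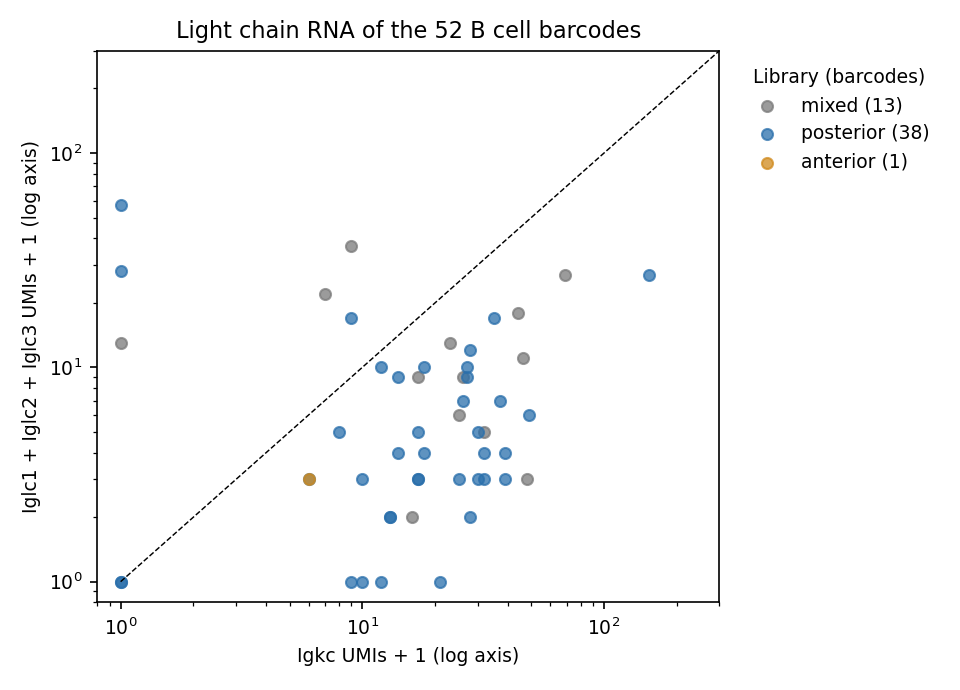
Igkc UMIs (x axis) against summed Iglc1, Iglc2 and Iglc3 UMIs (y axis) for each of the 52 B cell barcodes, coloured by library, on log axes with 1 added, where the dashed line marks equal counts. Of 50 B cells with at least 3 light chain UMIs, 44 lay below the line, on the kappa side.

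Variable segments were read from few B cells. Any V segment UMI was found in 21 of 52, with at most 3 UMIs of the leading segment in a cell. The 11 cells with a heavy V segment each had a different leading one, and 13 cells with a kappa V segment had 12 different ones. No heavy V segment therefore led in more than 1 B cell.

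T cells held the receptor complex and its signalling genes. Cd3d was seen in 51 of 53 at 852 CPM, Cd3e in 41 at 442, and the receptor constant gene Trbc2 in all 53 at 1263. Trbc1 and Trbc2 share 40.5% and 44.0% of their 50-base stretches, so the split between them is uncertain. Cd3g, which the rule did not use, was seen in 48 at 1087 CPM (964 to 1221), against 0.516 in the others. Trac, the alpha chain constant gene, was seen in 39, and Trac or Trbc1 in 43 of 53. Cd3e stood at 190.0 CPM in mixed, 520.3 in anterior and 454 in posterior T cells.

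In T cells 166 of 1889 genes were called higher (8.79%), a count from the contrast the rule used. Of 23 genes of T cell identity, 22 reached the minimum and 20 were called higher, with a median log2 fold of 4.22 against 0.53 over all genes compared. Leading were Ms4a4b with a log2 fold of 6.74 (1221 CPM, 41 of 53), Cd3g with 6.70, Trbc1 with 6.17, Ptprcap with 5.79, the costimulatory receptor Tnfrsf4 (OX40) with 5.46, Ltb with 5.45, and the adaptor Lat with 5.37. Gimap3, Trac and the kinase Lck followed with 5.04, 5.04 and 4.94. Not called were Thy1 (1.53) and the kinase Zap70, whose log2 fold of 3.44 was not matched in every library. Tnfrsf4 was not called either, since it had 0 UMIs in the mixed T cells. Il7r, the receptor of the survival cytokine IL-7, was seen in 25, Cd28 in 33 and the transcription factor Tcf7 in 24 of 53.

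Lineage could be read in fewer than all T cells. Cd4 was seen in 12 of 53 (0 of 8 mixed, 3 of 10 anterior, 9 of 35 posterior) and Cd8a or Cd8b1 in 11 (3, 3 and 5). None of the 53 held both, which allows a share of up to 5.66%, and 30 held neither at this depth. Trdc, the constant gene of the gamma delta receptor, was seen in 2 posterior T cells, with 9 and 13 UMIs, and neither of them had a Trac UMI. Foxp3, the transcription factor of regulatory T cells, was seen in 3 posterior T cells and 0 in the other libraries, 1 of them the cell with Siglech. Ctla4 and Tnfrsf18, which regulatory and activated T cells share, were seen in 26 and 24. Gata3 was seen in 11 and Tbx21 in 9, which encode transcription factors of type 2 and type 1 cells. Il17a had 1 UMI, and Il5 and Il13 were at 0.

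Posterior T cells included 2 with transcripts of natural killer (NK) cells. They held 9 and 11 UMIs of Nkg7, 74 and 23 of the granule protease Gzma, 16 and 14 of the signalling chain Fcer1g, 2 and 1 of the NK receptor Ncr1, and 0 of Cd3e, Cd3d and Cd3g. They met the T cell rule through Nkg7 and Trbc2. Both were the only members of the T cell class without a Cd3 UMI. Without them the T cell share was 3.28% in place of 3.40%. Gzma otherwise had 29 UMIs in 1 anterior T cell and 1 in a mixed T cell.

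Genes of naive and of effector T cells were counted in each library. A first set of genes, Ccr7 and Lef1, belongs to naive and recirculating cells. A second, Cxcr6, Icos, Ifng, Gzmb and Pdcd1, belongs to activated, effector and tissue-resident cells. Both sets were drawn from the lists after their values were seen, and they are given as counts only. The second set was seen in 2 of 8 mixed T cells (25.0%, 3.19 to 65.1), 10 of 10 anterior (100%, 69.2 to 100) and 22 of 35 posterior (62.9%, 44.9 to 78.5). The first set was seen in 5 of 8 mixed (62.5%, 24.5 to 91.5), 2 of 10 anterior (20%, 2.52 to 55.6) and 12 of 35 posterior (34.3%, 19.1 to 52.2). Since the sets were chosen on these cells and each library is 1 sample, no difference between libraries is read from these counts. The first alone was seen in 13 of 53 T cells, the second alone in 28, both in 6 and neither in 6, and Cxcr6 and Ccr7 were never seen in the same cell (0 of 53, up to 5.66%).

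Median depth was 2714 UMIs in mixed, 3560 in anterior and 3445 in posterior T cells. With every T cell thinned to 1000 UMIs the second set was seen in 2 of 8, 9 of 10 and 16 of 35, and the first set in 3 of 8, 1 of 10 and 4 of 35, the same order of libraries. Of the 11 T cells with Cd8a or Cd8b1, 7 held the first set and 5 the second, and of the 12 with Cd4, 2 held the first and 9 the second. The mixed library had 0 cells with Cd4, so lineage and library cannot be told apart in these counts.

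**Figure D4:**
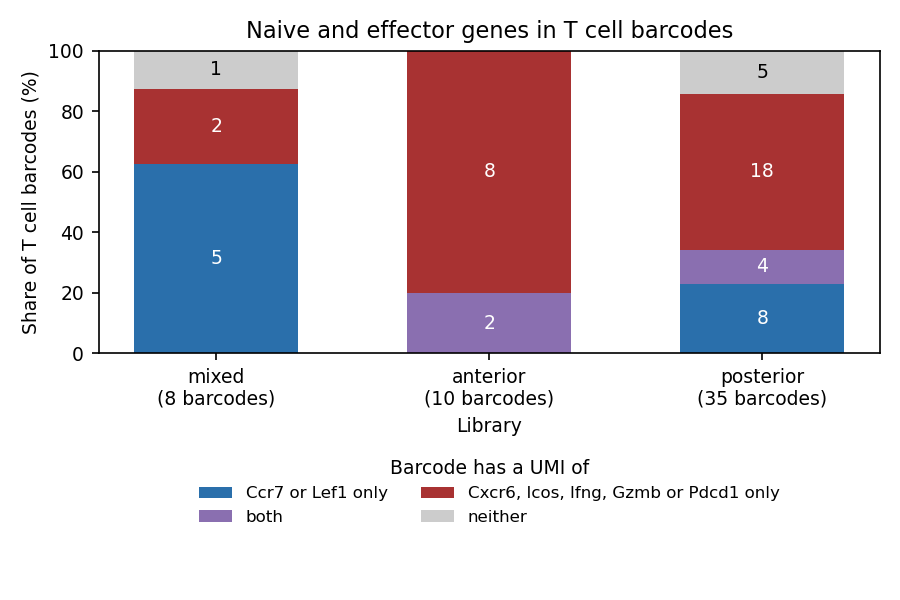
Share of the T cell barcodes of each library (y axis, percent, with barcode counts in the bars) that held genes of the first set (Ccr7, Lef1) alone, of the second set (Cxcr6, Icos, Ifng, Gzmb, Pdcd1) alone, both or neither. The second set alone was held by 2 mixed, 8 anterior and 18 posterior T cells, and the first alone by 5, 0 and 8.

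The following single genes were also chosen after their values were seen. Icos, a costimulatory receptor of activated T cells, was seen in 0 of 8 mixed, 7 of 10 anterior and 14 of 35 posterior T cells. Ctla4, an inhibitory receptor, was seen in 1, 7 and 18, and Tnfrsf4 in 0, 5 and 11. Cxcr6, a homing receptor of resident T cells, was seen in 1, 6 and 12, at 95.01, 493 and 202 CPM. In each of these 4 genes the share of T cells was lowest in the mixed and highest in the anterior library. The immune checkpoint gene Pdcd1, of the second set, had another order, with 0 of 8 mixed, 1 of 10 anterior and 9 of 35 posterior T cells.

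The cytokine gene Ifng, which encodes interferon gamma, stood at 190.0 CPM in mixed (1 cell), 1506 in anterior (5 cells) and 192 in posterior T cells (6 cells). An anterior cell of 5663 UMIs held 41 of the 55 anterior Ifng UMIs, and the deepest posterior cell 20 of 39. Ccl5, a chemokine of memory and cytotoxic T cells, followed another order, at 5986, 4902 and 2425 CPM, in 4, 8 and 16 cells. Klf2 stood at 1710.2, 0 and 271 CPM, the reverse order of Icos. Itgae, the integrin of T cells resident in epithelium, was at 0 in all 53.

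Cycling transcripts came mainly from 1 T cell. The deepest posterior T cell (59576 UMIs, 6386 genes) held 28 of 37 Mki67 UMIs and 63 of 69 of Top2a. Top2a stood at 265 CPM with it and 29.9 without it, and Mki67 at 142 and 44.8. It held 1 Cd4 UMI, 22 of Nkg7, 20 of Ifng and 12 of Ccl5. Mki67 was seen in 6 T cells, 2 anterior and 4 posterior.

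The 9 plasma cells had the highest median depth of the 3 classes and devoted 20.1% to 68.4% of their UMIs to immunoglobulin (median 50.04%), against 0.0122% to 2.52% in B cells (median 1.05%). Of 18 genes of the plasma cell secretory list, 14 reached the minimum and 13 were called higher than in the other barcodes, with a median log2 fold of 3.103 against -0.37 over all genes compared. In all, 67 of 584 genes were called higher (11.5%), again from the contrast the rule used. Mzb1 stood at 3455 CPM in 8 of 9, against 441 in B cells and 1.29 in the others. Xbp1, the transcription factor of the secretory program, stood at 1036 CPM in all 9, against 69.4 and 119.6. The chaperone Hsp90b1 stood at 3431 against 775, the translocon subunit Ssr4 at 1720.3 against 285, the signal peptidase subunit Sec11c at 1472 against 152, and the disulfide isomerase Txndc5 at 1406 against 81.6 (915 without the deepest cell). Sdc1, which encodes the plasma cell surface protein CD138, had a log2 fold of 1.62, the exception on the list, and was seen in 5 of 9. Prdm1 and Irf4, transcription factors that drive plasma cell formation, were seen in 5 and 4 of 9.

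B cell genes split in plasma cells. Cd79a was still seen in all 9 at 342 CPM and Ms4a1 in 7 of 9 at 60.9 CPM (942 in B cells), and Ly6d stood at 1298 CPM, while Pax5 had 0 UMIs. H2-Aa had 0 UMIs, H2-Ab1 stood at 70.3 CPM, and Cd74 at 2958 CPM, against 3638, 3697 and 11805 in B cells. Since CPM counts all UMIs, the immunoglobulin in plasma cells lowers the level of every other gene there.

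Each plasma cell was dominated by 1 heavy and 1 light chain. The leading heavy constant gene held 99.5% to 100% of a cell's heavy chain UMIs, and the larger light chain class 97.6% to 100% of its light chain UMIs. IgM was made by 6 of 9, or 66.7% (29.9 to 92.5), which were 2 of 2 mixed and 4 of 7 posterior cells. The other 3, all posterior, held IgG, and none led with Igha. Kappa was the larger light chain in 8 of 9. Jchain ran from 15 to 2825 UMIs per cell, with a median of 438.

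The 2 mixed plasma cells were both IgM. The first (9560 UMIs) held 438 Jchain, 187 Ighm and 4496 Igkc UMIs, with 36 UMIs of Igkv1-135. The second (10242 UMIs) was the only lambda cell, with 530 Jchain, 903 Ighm, 111 Igkc and 4558 lambda UMIs, 4525 of them Iglc2, and 9 UMIs of Iglv2. These cells thus differed in light chain and in V segment.

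Among the posterior cells, the 3 IgG cells used 3 different subclasses. The first (3435 UMIs) held 433 Ighg2b and 22 Jchain UMIs and led with Ighv1-85 (23 UMIs). The second (23659 UMIs) held 1092 Ighg2c and 198 Jchain UMIs, with Ighv1-50 (28) and Igkv9-120 (57). The third (37811 UMIs) held 2798 Ighg1 and 149 Jchain UMIs, with Ighv1-52 (29) and Igkv10-96 (66), and 14 Mki67 UMIs. Ighv1-52, Ighv1-50 and Ighv1-85 share 70.3%, 52.2% and 35.4% of their 50-base stretches with other V genes, so these names are uncertain. The 3 IgG cells held 22, 198 and 149 Jchain UMIs, and the 6 IgM cells 15 to 2825, so the groups overlapped.

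The 4 posterior IgM cells included 2 with the same pair of V segments. A cell of 13324 UMIs held 52 UMIs of Ighv11-2 and 80 of Igkv14-126, and the deepest cell (86534 UMIs) held 223 and 376. Outside these cells, members held 1 Ighv11-2 UMI in a B and 1 in a T cell, and 0 of Igkv14-126. Igkv14-126 shares 0 of its 309 stretches of 50 bases with another gene. Ighv11-2 shares 38.6% with Ighv11-1, which had 0 UMIs in all members. The Ighv11-2 heavy chain, often called VH11, is known from B-1a cells, where it pairs with a kappa chain of the Igkv14-126 segment to bind phosphatidylcholine. The 16-base barcodes of the pair differed at 15 positions. Their other counts were not in 1 ratio: the shallower cell held 0.168 of the deeper cell's Jchain, 0.216 of its Ighm, 0.0995 of its Igkc, 0.0217 of its Mzb1 and 0.0115 of its Slpi. Whether the pair are 2 cells of 1 clone or of 1 animal was not tested.

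The remaining posterior IgM cells were 1 of 26118 UMIs, with 1242 Jchain, 3272 Ighm and 14242 Igkc UMIs and with Ighv7-1 (58) and Igkv15-103 (101), and 1 of 2647 UMIs. The latter was the weakest plasma cell, with 15 Jchain, 150 Ighm, 362 Igkc and 0 Mzb1 UMIs, and its neuron genes summed to 15.1 per 10000. It held 18 UMIs of Igkv1-135, the segment that also led in a mixed cell. Igkv1-135 shares 36.5% of its stretches with Igkv1-133, Igkv1-131 and Igkv1-122, which had 0 UMIs in all members. Iglv1 was the leading lambda V segment in all 7 posterior cells although kappa dominated them, with 1 to 674 UMIs. It stood at 674 in the Ighg1 cell, which held 36 lambda constant UMIs.

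**Figure D5:**
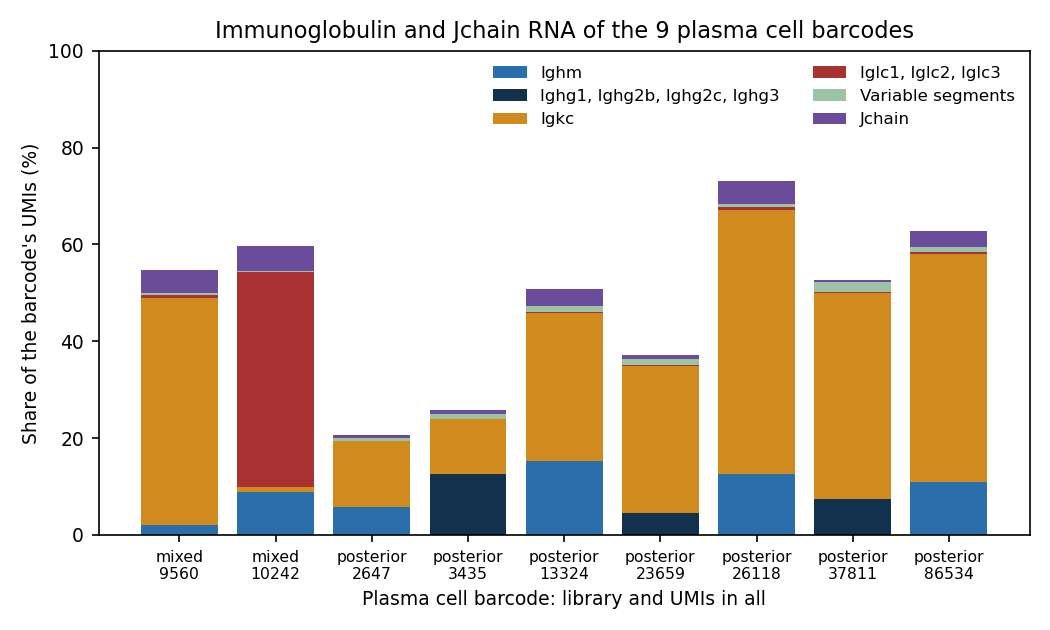
Immunoglobulin transcripts of the 9 plasma cell barcodes, each a stacked bar named by its library and UMIs in all. The y axis is the percent of the barcode's UMIs, and colours part Ighm, the Ighg genes, Igkc, the Iglc genes, variable segments and Jchain. Of the 9, 6 led with Ighm and 3 with an Ighg gene, and 1 had more lambda than kappa.

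Leading genes outside the immunoglobulins and the secretory list were Slpi, Ly6d and Ly6c2. Slpi, a secreted inhibitor of leukocyte proteases, stood at 18441 CPM against 41.3, a log2 fold of 8.49. It came from 5 of 9 cells, all posterior, with 241, 10, 2578, 232 and 873 UMIs. All 3 IgG cells held at least 232, while 4 of 6 IgM cells held 0. Ly6c2 stood at 1570.3 CPM (log2 fold 6.37). Eaf2, a transcription elongation factor, stood at 295 CPM (log2 fold 4.81).

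Receptors for signals that position and sustain lymphocytes were divided among the classes. Of 14 such genes, 4 reached the minimum in B cells and were called higher (10.5% of all genes compared were), and 5 of the 7 that reached it in T cells were (8.79% of all). B cells held Tnfrsf13c, the receptor of the survival factor BAFF, in 23 of 52, Cxcr5, which guides B cells to follicles, in 10, and Ccr6 in 7. Ccr6 fell from 134 to 68.3 CPM without the deepest B cell. T cells held Cxcr6 in 19 and Cxcr3, a receptor of interferon-induced chemokines, in 16 of 53. Plasma cells held Tnfrsf17, the BCMA receptor, in 6 of 9, and 0 UMIs of Ccr7.

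The ligands named here lay mostly in other barcodes. Summed over the 18 genes of the ligand list, T cells stood at 3191 CPM, against 1330 in the other barcodes. Ccl5 made up most of this T cell sum, and the 1 ligand compared in T cells was called higher. B cells stood at 109 CPM and plasma cells at 173. Cxcl13, the ligand of CXCR5, had 1634 UMIs in 46 of 1444 other barcodes (7 mixed, 3 anterior, 36 posterior) and 0 in members. Of these barcodes 16 had fibroblast and 15 macrophage markers. Ccl19, a ligand of CCR7, was seen in 136 others, 110 of them among the 384 with fibroblast markers. Ccl21a, the other CCR7 ligand, had 713 UMIs in 8 barcodes, 6 of them with endothelial markers. Cxcl16, the ligand of CXCR6, stood at 287 CPM in barcodes with macrophage markers, against 63.6 over all others. These are levels in dissociated, sorted cells, and where the cells lay in the tissue was not measured.

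Many receptors of autonomic transmitters had 0 UMIs in lymphocytes. Of 26 receptors of transmitters and hormones, 10 had a UMI in B cells, 11 in T cells and 6 in plasma cells. These counts depend on the depth of each class. The summed level of the 26 was 392 CPM in B, 445 in T and 89.1 in plasma cells, against 388 in the other barcodes. P2ry10, a lysophospholipid receptor, was the only one called higher, of 2 compared in B and 3 in T cells. It stood at 154 CPM in B and 131 in T cells against 3.098. Over all genes compared, 10.5% were called in B cells and 8.79% in T cells. The glucocorticoid receptor Nr3c1 stood at 99.1 and 99.8 CPM against 114. Ramp1, part of the receptor of the neuropeptide CGRP, was seen in 10 T cells at 111 CPM against 76.5. Chat, the enzyme of acetylcholine synthesis, had 1 UMI in T cells and 0 in B and plasma cells.

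Genes induced by tissue dissociation were compared next. Of 17 such genes, 0 of 15 compared were called higher in B cells (median log2 fold -1.10), 0 of 12 in T cells (-0.74) and 0 of 10 in plasma cells (-1.90), and no test was run. Over all genes compared 10.5%, 8.79% and 11.5% were called, with medians of 0.35, 0.53 and -0.37, so a count of 0 is near the background. Fos stood at 699 CPM in B cells and 534 in plasma cells against 3797 in the others. Without the members that held genes of another cell type it stood at 337 CPM in 49 B cells and 261 in 52 T cells. The interferon list also had 0 genes called higher in each class, of 2, 3 and 3 compared, too few to differ from that background.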

How the data were processed

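The deposited matrices hold raw counts of UMIs per gene and barcode, whole numbers with no normalization by the authors. Cell Ranger 3.1.0 (mixed) and Cell Ranger 6.1.2 (anterior, posterior) made them per the file headers. The submitters' processing notes name mm10, Seurat 4.4.2 and Cell Ranger 7.1.0. The mixed matrix lists 31064 features and the others 32285, and comparisons used the 29814 genes common to all. The members and the 34 gene lists were chosen with earlier results of these data known.

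Counts were read in Python 3.11.15 with NumPy 2.4.6 and SciPy 1.17.1 and summed per library and class. A barcode with Jchain was a plasma cell first, whatever B genes it held. Levels are CPM (counts per 1000000 UMIs) with exact Poisson intervals, shares have Clopper-Pearson and ratios exact conditional intervals, all at 95% and for counting error only. The interval code was tested on simulated data. Folds carry 10 CPM on both sides. With 1 library per group no test was run.

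Genes named were the 10 with the highest fold per class (leaving out mitochondrial, ribosomal and variable genes), list members with the highest levels or at 0, and the rule's genes. Any other gene was chosen after its values were seen, as were the gene sets of T cells and the V segments shown. Barcodes of other cell types were non-members within the limits with at least 3 detected markers of that type. Macrophages were taken first. Each remaining type also needed more detected markers than every other remaining type. Doublets were not removed. Scrublet scores in scanpy 1.11.5 were used as an alternative. Coordinates and sequences are from GENCODE vM21 (GRCm38), 1-based.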

Additional observations from a re-analysis of the deposited data

Results flagged for a closer look

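Igkc, the kappa constant gene, was found outside the members in the posterior library. Of its neuron-gene barcodes (those at or above the neuron limit), 39.1% held an Igkc UMI (739 of 1890, median depth 47822 UMIs), against 33 of 2045 in the mixed and 1 of 1598 in the anterior library. The highest held 410, in a barcode of 1911 UMIs with 140 Ighm UMIs and neuron genes at 20.9 per 10000. Whether such barcodes are of the B lineage was not tested.

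A further 19 barcodes met a class rule for B, T or plasma cells but held 20 or more neuron-gene UMIs per 10000 and are not members. They were 1 mixed, 1 anterior and 17 posterior. Of these, 12 lay between 20 and 40 per 10000, of which 9 met the B and 3 the T cell rule.

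In the posterior library, 3 barcodes outside the members held Nkg7 with Gzma or Klre1, genes of NK cells, and met no class rule.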

How the results depend on the processing

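Of 82 values recomputed under alternatives, 74 stayed within the 95% interval of the value reported (shares and ratios) or within 1.5 times of it (counts of called genes), 8 shares lay outside their interval and 0 reversed. This tally is a weak measure of stability. The interval of the B cell ratio, 3.77 to 904, could hardly be left, and some alternatives, such as removing the top doublet scores, took out 0 members. The share of B cells over the 3 libraries was 3.34% and ranged from 1.70% (without the posterior library) to 4.53% (without the anterior) when 1 library was left out. For T cells the share was 3.40% and ranged from 2.18% to 3.86%, and for plasma cells 0.578%, from 0.243% to 0.799%, each lowest without the posterior library. As shares of all barcodes within the depth limits, neurons included, B, T and plasma cells made up 0.733%, 0.747% and 0.127%. Thinned to 1000 UMIs, T cells made up 2.44%. The posterior to anterior ratio of B cell shares lay between 14.3 (neuron limit of 40) and 29.4 (of all barcodes within the depth limits), and it could not be computed above 2000 UMIs, where the anterior library held 0 B cells. The ratio of T cell shares lay between 1.501 and 2.71, and the kappa share of B cells between 78.6% and 91.9%. The share of T cells with the second gene set was 50.9% when thinned, and 55.8% to 71.1% when 1 library was left out. Called genes numbered 127 to 197 in B, 159 to 194 in T and 54 to 88 in plasma cells. The barcodes with the top 3% of doublet scores held 0 members.

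No paired analysis was possible because each group has 1 library. A gene by gene comparison of posterior with anterior B cells was planned and not run, since the anterior library held 1. Alternatives on members with genes of another class, on NK genes, on all barcodes, on the deepest barcode and on the second T cell gene set were chosen after seeing the data.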

Other observations

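Immunoglobulin transcripts outside the members differed in composition between libraries. In neuron-gene barcodes Igkc and Jchain had 43 and 54 UMIs in the mixed library (0.796 Igkc per Jchain), 21 and 21 in the anterior, and 2319 and 113 in the posterior (20.5 per Jchain). The plasma cells held 4.76 Igkc per Jchain in the mixed and 16.9 in the posterior library. A single posterior neuron-gene barcode held 410 of the 2319 Igkc UMIs. Other posterior barcodes above the neuron limit, described below, held 309, 258 and 376. The posterior ratio may therefore lean on few barcodes. In the mixed and anterior libraries Jchain was seen in 54 and 20 neuron-gene barcodes with almost 1 UMI each. It was seen in 0 of their other non-neuronal barcodes outside the plasma cells. The neuron-gene barcodes held 116468928 and 53324638 UMIs in these libraries, against 1891467 and 1577328 in the other barcodes within the limits. At that difference in depth, the 0 does not set the other barcodes apart. In the anterior library the 21 Igkc UMIs of neuron-gene barcodes all lay in 1 barcode. Ighv11-2, the heavy V segment shared by 2 posterior plasma cells, was seen in 14 posterior neuron-gene barcodes and in 0 of the other libraries.

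In the posterior library, 4 barcodes outside the members held over 200 Igkc UMIs. They had 1911, 1347, 2140 and 1623 UMIs in all, 410, 309, 258 and 376 of Igkc, 140, 0, 107 and 15 of Ighm, and 0, 3, 9 and 3 of Jchain, with neuron genes between 20.9 and 65.4 per 10000. The barcode of 2140 UMIs also held 17 UMIs of Igkv1-135, the segment found with 18 UMIs in the weakest posterior plasma cell.

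C1qb, a complement gene of macrophages, had 63 UMIs in the deepest plasma cell, where C1qa and C1qc had 0. In B cells C1qa, C1qb and C1qc had 96, 77 and 44 UMIs, with C1qa confined to the 2 posterior B cells that held macrophage markers.

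Among the 15 leading genes of plasma cells were 2 known mainly from other cell types. Prg2, an eosinophil granule protein, stood at 211 CPM (154 to 282), and Oosp1, named for oocyte secretion, at 197 CPM (142 to 266), both with 0 in the 1444 other barcodes. They were seen in 5 and 7 of 9 plasma cells.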
